A study of Homo sapiens with 4 samples.

Results

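The genes described here encode the intermediate filaments of an epithelial tumour cell and the proteins that hold them: 7 keratins (KRT7, KRT8, KRT10, KRT18, KRT19, KRT80 and KRT81), vimentin (VIM), plectin (PLEC) and desmoplakin (DSP). They were taken by symbol from the deposited table, where 10 of 10 were found among 23143 gene symbols. RNA came from A549, an established human lung adenocarcinoma line. In the noDOX group, 2 libraries (noDOX 1 and 2), GATA4 stood at its normal level, and in the DOX group, 2 libraries (DOX 1 and 2), doxycycline was given and GATA4 was overexpressed. GATA4 is a zinc finger transcription factor, and the series title links lung cancers short of GATA4 to the type I TGF-β receptor. Cells without doxycycline received vehicle according to the design text. The construct that carries GATA4, the doxycycline dose and time, and whether the line is a single clone are not given in the labels, and no doxycycline-treated line without the construct was analysed here.

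Keratins are the intermediate filaments of epithelia, and a filament always pairs a type I with a type II keratin. KRT8 (type II) and KRT18 (type I) are the pair of simple, single-layered epithelia, and KRT7 and KRT19 accompany them in lung and other glandular epithelia. Vimentin is the intermediate filament of mesenchymal cells and a common marker of epithelial-mesenchymal transition, a change of cell state that TGF-β can drive. Desmoplakin fastens keratin filaments to desmosomes, the spot-like junctions between epithelial cells, and plectin is a giant linker that ties intermediate filaments to hemidesmosomes, actin and microtubules.

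GATA4 was at 12.2 and 14.5 FPKM in noDOX 1 and 2, and at 75.0 and 48.0 FPKM in DOX 1 and 2. FPKM are fragments scaled to transcript length and to the mapped fragments of a library, so levels of different genes can be set side by side. Differences between libraries still went with transcript length (below), and ratios of genes of unlike length may carry them. The FPKM sum was 975730 to 1381800 per library, of which small RNA genes held 34.9 to 41.9%, and 11974 to 12622 genes reached 1 FPKM. Of 9 epithelial markers, EPCAM, CDH1 and CLDN4 were at 3.08 to 25.8 FPKM, while CLDN7, ESRP1 and GRHL2 stayed under 1 FPKM in every library. The 7 endothelial markers summed to 0.768 to 1.22 FPKM. The 9 fibroblast markers summed to 2.30 to 9.92 FPKM, mostly COL1A1, with DCN and FAP listed at 0 throughout. The 9 leukocyte markers summed to 12.4 to 34.4 FPKM, which came mainly from CD68 and CD14, whereas CD3E, CD3D and MS4A1 were listed at 0 and PTPRC, the pan-leukocyte CD45 gene, reached at most 0.00516 FPKM.

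None of the 10 genes passed the test between DOX and noDOX. The test was limma on log2(FPKM + 1) over the 12504 genes whose mean reached 1 FPKM, with Benjamini-Hochberg adjustment at 0.05. Over all tested genes 11 passed, or 0.088% (3 higher, 0.024%, and 8 lower, 0.064%). GATA4, the overexpressed gene itself, was not among them, with a log2 difference of 2.09 (limma, adjusted p = 0.289). Both of its DOX libraries lay above both noDOX libraries. The test thus missed the gene that was overexpressed, and a gene that did not pass cannot be read as unchanged. At an unadjusted p under 0.05 the count was 0 of the 10 genes, where 6.34% of tested genes lay. The median log2 difference of the 10 genes was 0.11, beside -0.04 over all genes tested, and 4 of the 10 had a lower mean in DOX. KRT7, KRT80 and KRT81 were lower in both DOX libraries than in both noDOX libraries, which held for 17.3% of tested genes. None of the 10 lay higher in both DOX libraries, which held for 14.7%, so 3 of 10 did not overlap in either direction, a share near the 32% of all tested genes. In these bulk libraries fewer cells that express a gene and less RNA per cell cannot be told apart. The labels do not say that replicates came from separate cultures, and p-values then measure only how these libraries vary, which may be technical variation.

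KRT8 and KRT18, the pair of simple epithelia, were the most abundant type II and type I keratins. By mean FPKM KRT8 ranked 22 and KRT18 ranked 49 among 21542 genes outside the small RNA classes. KRT8 was at 3629 and 2339 FPKM in noDOX 1 and 2, and at 3027 and 5245 FPKM in DOX 1 and 2. The groups overlapped, since DOX 1 lay between the noDOX libraries and DOX 2 lay above both. Group means came to 2984 ± 912 in noDOX and 4136 ± 1569 FPKM in DOX (SD, n = 2 each), a log2 difference of 0.45 with a standard error of 0.60 (limma, adjusted p = 0.999). The KRT8 difference was 0.0552 without DOX 2, 0.14 without noDOX 2, 0.77 without noDOX 1 and 0.85 without DOX 1. KRT18 was at 2169 and 1728 FPKM in noDOX and at 1750.2 and 2917 FPKM in DOX. It had the same order of libraries as KRT8, with noDOX 2 lowest and DOX 2 highest, and a log2 difference of 0.22 (95% interval -1.16 to 1.61; limma, adjusted p = 0.999).

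The proportion of these partners varied less than their levels. The KRT8 to KRT18 ratio of FPKM, which does not depend on scaling between libraries, was 1.67 and 1.35 in noDOX and 1.73 and 1.80 in DOX. On the log2 scale the ratio was 0.59 ± 0.22 in noDOX and 0.82 ± 0.04 in DOX (SD, n = 2 each), a difference of 0.23 (two-sided exact permutation test, p = 0.333, the smallest that 2 against 2 libraries allow). That difference ran from 0.08 without noDOX 2 to 0.38 without noDOX 1. KRT8 and KRT18 are neighbours on chromosome 12 on opposite strands, and their exons in the basic GENCODE set share 135 bases, so reads there, with a strand setting not given in the sources used here, cannot be told apart. Of the 50-base words of the KRT18 transcript, 43.4% occur on either strand of transcripts of 45 other genes in the full GENCODE set, against 3.73% for KRT8. The largest part for KRT18 was KRT8 itself, with 19.8%, followed by the processed pseudogene KRT18P11 with 9.17%.

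KRT81 is a type II hair keratin that some tumour lines express, and KRT7 is a type II keratin of glandular and simple epithelia. In noDOX both stood near KRT18 in level. KRT81 was at 3007 and 2072 FPKM in noDOX and at 133 and 1329 FPKM in DOX, and KRT7 was at 1944 and 1476 FPKM in noDOX and at 197 and 1359.7 FPKM in DOX. For both genes the DOX libraries lay below the noDOX libraries, but DOX 2 was nearer to them and DOX 1 lay far from all others. KRT81 was 9.96 times and KRT7 6.89 times as high in DOX 2 as in DOX 1. On the log2(FPKM + 1) scale, gaps between the DOX libraries at least as wide were found in 0.864% of tested genes for KRT81 and in 0.992% for KRT7. Among the 6480 tested genes whose mean reached 10 FPKM, the share for KRT81 was 1.33%.

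The group means of KRT81 were 2539.5 ± 661 and 731 ± 846 FPKM (SD, n = 2 each), a ratio of 0.288. The log2 difference was -2.56 with a standard error of 1.18 and a 95% interval from -5.70 to 0.57 (limma, adjusted p = 0.895). KRT7 had means of 1709.7 ± 331 and 779 ± 822 FPKM and a log2 difference of -1.71 (95% interval -4.38 to 0.97; limma, adjusted p = 0.981). Without DOX 1 the KRT81 difference was -0.91 and that of KRT7 was -0.32, and without DOX 2 they were -4.22 and -3.10. KRT80, a type II keratin of differentiating epithelia, was at 21.5 and 26.5 FPKM in noDOX and at 4.23 and 18.4 FPKM in DOX. It had the same form, with DOX 1 apart and DOX 2 under noDOX 1, and a log2 difference of -1.30 (95% interval -3.05 to 0.45; limma, adjusted p = 0.937). Without DOX 1 that difference was -0.36. DOX 1 also had the highest GATA4 value and the lowest sum of leukocyte markers, 12.4 FPKM against 30.9 to 34.4 FPKM in the others, and the part of either in these values was not tested.

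**Figure D1:**
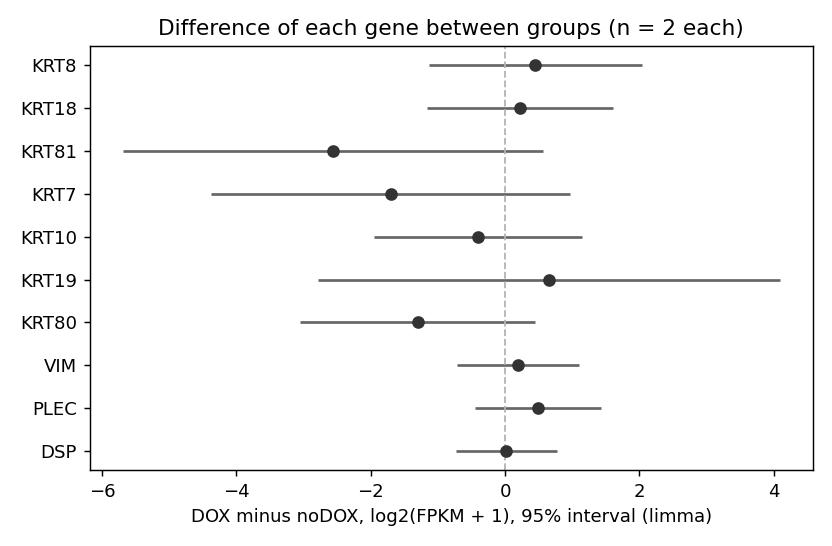
Difference between DOX and noDOX in log2(FPKM + 1) for each gene, with the 95% interval from limma as a line and n = 2 libraries per group. The intervals of all 10 genes include 0, and the widest belong to KRT19, KRT81 and KRT7.

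The value of KRT81 carries an uncertainty that comes from its close relatives. Of the 50-base words of the KRT81 transcript in GENCODE release 29, 44.6% occur in transcripts of other genes, most of them in KRT86, the next hair keratin in the same cluster, with 38.4%. KRT86 was listed at 9.41 and 31.7 FPKM in noDOX and at 1.99 and 27.4 FPKM in DOX, so DOX 1 was lowest in both genes while the order of the other libraries differed. The split of reads between the copies was the authors' and cannot be checked from FPKM.

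KRT80, KRT7, KRT86, KRT81 and KRT83 follow each other at one end of the type II keratin cluster on chromosome 12, and KRT8 and KRT18 lie at its other end. DOX 1 was the lowest library in these 5 genes, and the next gene, KRT85, was lowest in DOX 2. The stretch of 5 was bounded where that order ends, after the values were seen, so its count is a description and is not read against a background. Across tested genes DOX 1 was the lowest library in 32.2%, noDOX 1 in 27.7%, noDOX 2 in 23.3% and DOX 2 in 16.7%. Relative to the noDOX mean, DOX 1 stood at 0.177 for KRT80, 0.115 for KRT7, 0.0970 for KRT86, 0.0525 for KRT81 and 0.0584 for KRT83, and DOX 2 at 0.767, 0.795, 1.34, 0.523 and 0.187 in that order. DOX 2 was thus nearer to noDOX than DOX 1 in each of the 5. These 5 genes may not be separate measurements. Of the words of the KRT81 transcript, 38.4% occur in KRT86, 6.22% in KRT83 and 6.06% in KRT85. KRT81 stood far above these genes in every library, and the part of its reads in their values was not tested. At the other end KRT8 and KRT18 were lowest in noDOX 2. Between the ends, KRT4 was at 3.51 to 6.26 FPKM, KRT85 at 4.70 FPKM in noDOX 1 and at most 0.283 FPKM elsewhere, and KRT5, KRT6A and the other genes stayed under 1 FPKM. The nearest measured gene before KRT80, C12orf44, was at 124 and 79.0 FPKM in noDOX and at 57.2 and 99.2 FPKM in DOX, and EIF4B, next to KRT18, was at 233 and 257 FPKM in noDOX and at 303 and 219 FPKM in DOX. DOX 1 was the lowest library in 4 of 7 measured flanking genes (GRASP, C12orf44, TENC1 and IGFBP6), on both sides of the cluster. KRT4, KRT85, KRT86 and the flanking genes named were also picked out after their values were seen.

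The make-up of the keratin pool followed from these values. The summed FPKM of the 7 keratins was 10946 and 7699.5 in noDOX and 5166 and 11041 in DOX. Those sums were 1.22, 1.34, 0.909 and 1.46% of all FPKM outside the small RNA classes in the same order of libraries. KRT8 and KRT18 together made up 53.0 and 52.8% of the sum in noDOX, 92.5% in DOX 1 and 73.9% in DOX 2. KRT81 held 27.5 and 26.9% in noDOX, 2.58% in DOX 1 and 12.04% in DOX 2, and KRT7 held 17.8, 19.2, 3.82 and 12.3%. The noDOX libraries thus had nearly the same shares despite different sums, and both DOX libraries had larger shares of KRT8 and KRT18. Type II keratins exceeded type I keratins in every library, by ratios of 3.66 and 3.32 in noDOX and 1.86 and 2.58 in DOX over all measured keratins. The DOX ratios lay below the noDOX ratios, a log2 difference of -0.67 (two-sided exact permutation test, p = 0.333). It was -0.43 without DOX 1 and -0.90 without DOX 2.

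**Figure D2:**
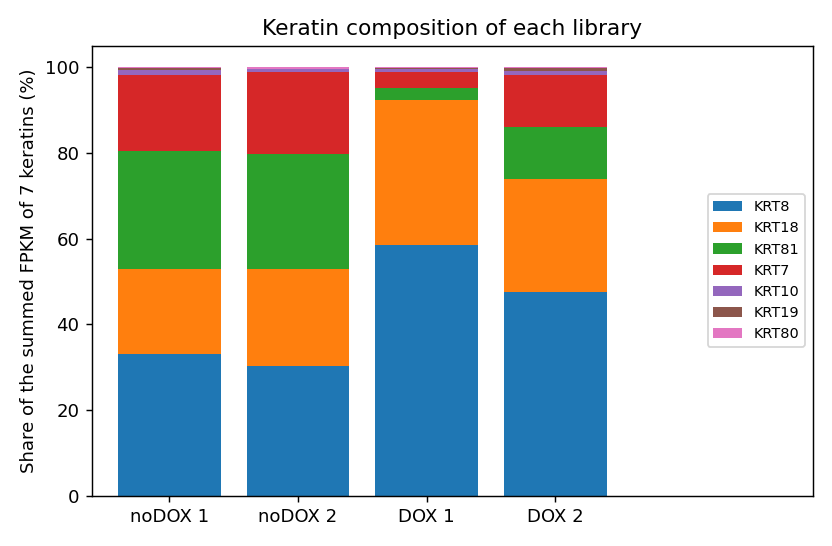
Share (%) of each of the 7 keratins in their summed FPKM, 1 bar per library. KRT8 and KRT18 make up 53.0 and 52.8% in noDOX, 92.5% in DOX 1 and 73.9% in DOX 2, and KRT81 and KRT7 make up most of the rest.

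KRT19 and KRT10, type I keratins from chromosome 17, varied as much inside the groups as between them. KRT19, a small keratin of simple and ductal epithelia, was at 53.5 and 7.49 FPKM in noDOX and at 11.99 and 87.0 FPKM in DOX. The libraries of a group differed 7.14-fold in noDOX and 7.25-fold in DOX, and noDOX 1 and DOX 2 were the high ones. The log2 difference between groups was 0.65 with a 95% interval from -2.78 to 4.09 (limma, adjusted p = 0.999), and it was -0.69 without noDOX 2 and -0.73 without DOX 2. KRT10, best known from the upper layers of the epidermis, was at 122 and 50.8 FPKM in noDOX and at 41.4 and 84.7 FPKM in DOX. Here too noDOX 1 and DOX 2 were high, and the log2 difference was -0.41 (95% interval -1.96 to 1.14; limma, adjusted p = 0.999). Without noDOX 1 the KRT10 difference was 0.22, and without DOX 1 it was 0.10. The KRT7 to KRT19 ratio ran from 15.6 to 197 and was lower in both DOX libraries (16.5 and 15.6) than in noDOX (36.3 and 197; exact permutation test, p = 0.333).

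VIM had the smallest range over the libraries of all filament genes in the set, 0.52 on the log2(FPKM + 1) scale. It was at 305 and 246 FPKM in noDOX and at 279 and 352 FPKM in DOX, so the groups overlapped. Its mean was 275 ± 41.7 FPKM in noDOX and 316 ± 51.4 FPKM in DOX (SD, n = 2 each), a log2 difference of 0.20 with a standard error of 0.34 and a 95% interval from -0.71 to 1.11 (limma, adjusted p = 0.999). The VIM difference was 0.0301 without DOX 2, 0.0415 without noDOX 2, 0.35 without noDOX 1 and 0.36 without DOX 1. The VIM to keratin ratio, over the 7 keratins, was 0.0278 and 0.0319 in noDOX and 0.0541 and 0.0319 in DOX. Only DOX 1 stood apart (exact permutation test over the 4 libraries, p = 0.667), and the log2 difference of 0.48 was 0.10 without DOX 1 and 0.86 without DOX 2. Set against KRT8 and KRT18 alone, VIM was at 0.0526 and 0.0604 in noDOX and at 0.0585 and 0.0431 in DOX, so DOX 1 then lay between the noDOX libraries. Antisense transcripts overlap the VIM exons, by 641 bases for VIM-AS1, and without the strand setting their reads cannot be told apart from those of VIM.

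PLEC and DSP, the linkers, had the longest transcripts of the set, at 15249 and 9796 bases, against 1390 to 3894 bases for the filament genes. PLEC was at 26.1 and 44.1 FPKM in noDOX and at 56.1 and 41.5 FPKM in DOX, and its groups overlapped because noDOX 2 lay above DOX 2. Its log2 difference was 0.49 (SE 0.35, 95% interval -0.44 to 1.43; limma, adjusted p = 0.990). The PLEC difference was 0.13 without noDOX 1, 0.28 without DOX 1 and 0.86 without noDOX 2. DSP was at 15.3 and 20.8 FPKM in noDOX and at 21.6 and 15.1 FPKM in DOX. The means of DSP were 18.1 ± 3.95 and 18.4 ± 4.58 FPKM (SD, n = 2 each), and the log2 difference was 0.02 with a 95% interval from -0.73 to 0.77 (limma, adjusted p = 0.999). The PLEC to DSP ratio was 1.71 and 2.12 in noDOX and 2.59 and 2.74 in DOX, with no overlap between the groups (log2 difference 0.49; exact permutation test, p = 0.333).

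For 7 of the 10 genes the libraries fell into the same pairs across the groups. KRT8, KRT10, KRT18, KRT19 and VIM were higher in noDOX 1 and DOX 2 than in noDOX 2 and DOX 1, an order held by 33% of tested genes. PLEC and DSP were lower in noDOX 1 and DOX 2, an order held by 26.9%. Together these orders took in most tested genes, so the pairing is not particular to the 10 genes. The order went with transcript length over the whole table. For 2106 tested genes whose longest transcript was over 1000 and up to 2000 bases, the median of log2(FPKM + 1) minus the gene's mean was 0.30 in noDOX 1 and 0.12 in DOX 2, and -0.17 in noDOX 2 and -0.26 in DOX 1. For 4560 genes over 2000 and up to 4000 bases, which include KRT8 and KRT10, the median was nearer to 0. It was 0.06 and 0.03 in noDOX 1 and DOX 2, and -0.04 and -0.07 in noDOX 2 and DOX 1. For 908 genes over 8000 bases it was -0.23 and -0.09 in noDOX 1 and DOX 2, and 0.08 and 0.21 in noDOX 2 and DOX 1. With a smooth length trend removed from each library, a step added after the data were seen, the range over the 4 libraries went from 1.07 to 0.58 (log2) for PLEC and from 0.49 to 0.27 for DSP. For KRT19 it went from 3.37 to 3.06 and for KRT81 from 4.48 to 4.09. For KRT8 it went from 1.16 to 1.07 and for KRT10 from 1.54 to 1.21. The range of KRT18 went from 0.755 to 0.583, that of VIM from 0.517 to 0.339 and that of KRT7 from 3.29 to 2.84, while that of KRT80 stayed at 2.39. With the trend removed the DSP difference between groups was -0.10 and the PLEC difference kept its direction, and none of the 10 genes passed.

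The other intermediate filament genes gave no call. Of 28 listed type I keratins, 5 were tested and 0 passed, with 2 higher and 3 lower means and a median log2 difference of -0.29. KRT15, a keratin of basal cells, was at 3.97 and 2.68 FPKM in noDOX and at 0.630 and 2.29 FPKM in DOX, and KRT20, a gut and urothelial keratin, had a log2 difference of -0.29. Of 26 type II keratins 8 were tested and 0 passed, with 2 higher and 6 lower means and a median of -1.23. Of these 8, 4 had libraries that did not overlap, all lower, which held for 17.3% of all tested genes. KRT7, KRT80 and KRT81 were already counted so above, and only KRT83, which shares transcript words with KRT81, was added here. KRT83, a hair keratin, was at 11.8 and 1.95 FPKM in noDOX and at 0.402 and 1.29 FPKM in DOX (limma, adjusted p = 0.858). Among 9 tested non-keratin filament genes 0 passed, with a median of -0.05. LMNA, which encodes the nuclear lamins A and C, was at 212 and 180.2 FPKM in noDOX and at 234 and 306 FPKM in DOX. The neuronal filament gene INA had a log2 difference of -0.62, the lens filament gene BFSP1 one of -0.72 and the neurofilament gene NEFL one of -0.60.

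Junction and linker genes around DSP and PLEC gave no call either, and 7020 of all 12504 tested genes had lower DOX means. Of 8 tested desmosome genes 7 had higher means and 0 passed, with a median log2 difference of 0.09. PKP2, a plakophilin that binds desmoplakin, was at 1.83 and 3.10 FPKM in noDOX and at 4.81 and 5.17 FPKM in DOX. It was the 1 desmosome gene with an unadjusted p under 0.05 (limma, adjusted p = 0.671). PKP4 had a log2 difference of 0.42 and the desmosomal cadherin DSC2 one of 0.52, while JUP, which encodes plakoglobin, had one of -0.22. Of 6 tested plakins, the family of PLEC and DSP, 5 had higher means and 0 passed, and the differences were 0.44 for EVPL (envoplakin), 0.24 for DST (dystonin) and -0.47 for PPL (periplakin). Among 5 tested hemidesmosome genes 3 had higher and 2 lower means, and 0 passed. ITGA6, the integrin α6 chain, was at 15.3 and 29.9 FPKM in noDOX and at 72.6 and 33.1 FPKM in DOX (log2 difference 1.16; limma, adjusted p = 0.885), and CD151, a tetraspanin that binds it, had a difference of -0.29. DSC2, DST, PLEC and DSP have transcripts of 12325, 22431, 15249 and 9796 bases. They fall in the length class over 8000 bases that was highest in DOX 1 and lowest in noDOX 1. With the length trend removed the differences were 0.39 for DSC2, 0.0812 for DST, 0.35 for PLEC and -0.10 for DSP. Of 8 keratin-binding partners 5 had higher means and 0 passed, with FAM83H, which brings casein kinase 1 to keratin filaments, at 0.57, the ubiquitin ligase STUB1 at 0.16, the death receptor adaptor TRADD at -0.26 and the keratin-binding protein TCHP at -0.10. Limma gave 0 calls in all of these lists, and the unadjusted p was under 0.05 for PKP2 and, among epithelial markers, EPCAM, whose log2 difference was -1.40 (limma, adjusted p = 0.494). CLDN4 and CDH1 had differences of 0.74 and 0.39, the basal markers TP63 and SFN had -0.43 and 0.07, and COL1A1, CD68, CD14 and LYZ had -1.04, -0.92, -0.17 and -0.02.

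Upstream sequence was looked up for the 10 genes because GATA4 binds DNA at GATA motifs. The RefSeq promoter table on GRCh38.p14 held 4 of them (KRT8, KRT10, VIM and DSP), and the 250 bases before the start were searched on both strands for the GATA core GATAA, the TATA box motif TATAAA and the GC box motif GGGCGG, which may overlap. GATAA was in 20.4%, TATAAA in 10.7% and GGGCGG in 42.6% of 35116 promoter windows of that length. KRT10 and DSP are shown as the contrast between a TATA-box window and a GC-rich one, with matches in capitals. The KRT10 window is chr17:40822615-40822864 on the minus strand with 34.8% GC, and the DSP window is chr6:7541421-7541670 on the plus strand with 78% GC.
KRT10: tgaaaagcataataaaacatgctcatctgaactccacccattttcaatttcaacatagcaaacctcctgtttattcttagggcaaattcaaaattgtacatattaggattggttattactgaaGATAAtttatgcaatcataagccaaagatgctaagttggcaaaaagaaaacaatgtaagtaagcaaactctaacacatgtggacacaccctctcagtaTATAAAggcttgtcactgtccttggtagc
DSP: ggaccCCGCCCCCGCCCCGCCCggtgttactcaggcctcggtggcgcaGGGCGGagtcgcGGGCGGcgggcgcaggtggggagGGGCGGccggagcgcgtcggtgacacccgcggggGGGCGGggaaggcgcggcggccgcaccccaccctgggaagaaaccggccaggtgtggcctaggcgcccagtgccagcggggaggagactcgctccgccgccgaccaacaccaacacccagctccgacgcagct
The KRT10 window had 1 match to GATAA and 1 to TATAAA, and the DSP window had 7 to GGGCGG, and none to the other motifs. KRT8 and VIM had 0 matches to GATAA in the windows searched. The KRT8 window was chr12:52926470-52926719 on the minus strand, and sequence before any other start of these genes was not searched. KRT10 was at 122 and 50.8 FPKM in noDOX and at 41.4 and 84.7 FPKM in DOX, and DSP had the smallest difference of the 10 genes. Since none of the 10 genes passed, the matches cannot be set against a called difference. KRT7, KRT80 and KRT81 were not among the 4 genes with a window.

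The genes with patterns most like the 3 most variable members were taken from 6188 other genes whose mean reached 10 FPKM, small RNA genes left out. Likeness was the root mean square difference of log2(FPKM + 1), centred for each gene, over the 4 libraries. Nearest to KRT81 was MMP7, the matrix metalloproteinase matrilysin, at a distance of 0.165 (log2), with 148 and 98.0 FPKM in noDOX and 7.26 and 59.6 FPKM in DOX. FXYD2, a sodium pump subunit, NNMT, a nicotinamide methyltransferase, and IER5L followed at 0.396, 0.410 and 0.420. KRT7 shared MMP7, NNMT and FXYD2 with KRT81 and was nearest to MB, which encodes myoglobin, at 0.325. Nearest to KRT19 was the trefoil factor TFF1 at 0.289, with 56.2 and 12.1 FPKM in noDOX and 16.3 and 80.2 FPKM in DOX, and the fatty acid desaturase FADS2, the inflammasome adaptor PYCARD and the acyl-CoA-binding protein DBI lay farther off, at 0.658, 0.684 and 0.701. With 4 libraries many genes can share an order, and the distances are a description.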

How the data were processed

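RNA was sequenced in 4 libraries of A549 cells, 2 noDOX and 2 DOX. Per the labels' protocols polyadenylated RNA was enriched with oligo(dT) beads after DNase I. The authors deposited FPKM for 23143 gene symbols, and per the submitters' processing notes TopHat2 2.0.10, Bowtie, Cufflinks 2.2.1 and Cuffdiff were used on hg19. Annotation, strandedness and between-library scaling: not given in the sources used here. Absolute depth is unknown, so no counting interval is given. The ratio of low values (under 0.1 FPKM in both libraries) that recurred most between libraries puts the relative depth behind 1 FPKM at 1.15, 1.10 and 0.726 in noDOX 2, DOX 1 and DOX 2, with noDOX 1 as 1.

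Genes whose mean reached 1 FPKM were tested on log2(FPKM + 1) with limma 3.58.1 in R 4.3.3 (2 group means, trended moderation, two-sided, Benjamini-Hochberg at 0.05, 2 residual degrees of freedom). The pseudocount of 1 understates changes of low genes. Ratios within a library were tested by exact permutation, which cannot go below p = 0.333. The members and lists were chosen with earlier results of these data known. Genes named by rule are all members, GATA4, up to 4 tested genes of each list by smallest p, and the 4 nearest patterns of the 3 most variable members; KRT4, KRT85, KRT86 and the genes flanking the keratin cluster were added after their values were seen. Alternatives changed the pseudocount, filter, scaling, moderation, block and libraries. Lengths, exons and transcript words came from GENCODE release 29 (a later build, matched by symbol, 96.8% of tested genes), so coordinates are given only for RefSeq promoter windows, with their own build.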

Additional observations from a re-analysis of the deposited data

How the results depend on the processing

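Limma called 0 of the 10 genes under each of 17 alternatives. KRT7, KRT8, KRT80, KRT81, VIM and PLEC kept their direction in all 17, though with 1 library left out KRT8 ran from 0.0552 to 0.85, VIM from 0.0301 to 0.36 and PLEC from 0.13 to 0.86, and KRT7, KRT80 and KRT81 from -3.10 to -0.32, -2.25 to -0.36 and -4.22 to -0.91. Filters, moderation and blocks leave a difference as it is by construction. The count of called genes over the whole table was 11 and came to 1 with no filter, 1 with small RNA genes left out, 1 with a common sum without small RNA, 65 with the replicate block, 7 with the length trend removed and 41 to 63 with 1 library left out. Fewer genes are tested where small RNA genes are left out, which includes the common sum, and more are tested with no filter. The causes of these changes in count were not tested. The scaling alternatives put the median of all genes between -0.02 and 0.07 (log2), beside -0.04 for FPKM as deposited.

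The labels give replicate numbers but do not say what a number marks. Across genes, the difference between noDOX 1 and 2 and that between DOX 1 and 2 had a correlation of -0.76, and the crossed pairing called 7 genes. The same pairs of libraries differed with transcript length above, and the part of length in this correlation was not tested. Whether the numbers were crossed cannot be told from these files, so the 65 calls with the replicate block rest on a pairing that is not established. With either block 0 of the 10 genes passed. The differences of ratios under the replicate block (0.23 for KRT8 to KRT18, 0.48 for VIM to keratin) are fixed by the balanced design and say nothing about stability.

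With 1 library left out, where the lone library of a group is assumed to vary like the pair in the other, the median of the 10 genes ran from -0.44 to 0.19 and was below 0 without noDOX 2 or DOX 2, the KRT8 to KRT18 difference ran from 0.0762 to 0.38 and the VIM to keratin difference from 0.10 to 0.86. Directions that changed with the library left out were those of KRT10 (-1.03 to 0.22), KRT18 (-0.15 to 0.59), KRT19 (-0.73 to 2.03), DSP (-0.22 to 0.26), KRT20 (-0.82 to 0.23), PPL (-1.04 to 0.0905), CD151 (-0.67 to 0.0802), TRADD (-0.61 to 0.0851), STUB1 (-0.0348 to 0.36), TCHP (-0.30 to 0.0932), CDH1 (-0.21 to 0.998), SFN (-0.49 to 0.63), CD14 (-1.43 to 1.09), LYZ (-0.60 to 0.56), TFF1 (-0.67 to 1.57), FADS2 (-0.99 to 0.90), PYCARD (-0.59 to 0.96) and DBI (-0.84 to 1.16). Elsewhere DSP turned to -0.10 with the length trend removed. LYZ turned to 0.000615 with median-of-ratios scaling, 0.0400 with quantile normalization, 0.0493 with the common sum and 0.117 without the length trend, FADS2 to 0.0182 with quantile normalization and 0.0878 with the common sum, and TCHP to 0.0230 with the common sum. None of the 39 other named genes passed under any alternative, and the cause of these reversals was not tested. With 2 libraries per group the intervals are wide, and the absolute depth is unknown.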
